A study of Mus musculus with 6 samples.

Results

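The genes described here encode parts of the transforming growth factor beta (TGF-beta) pathway, namely the ligand Tgfb1, the receptors Tgfbr1 and Tgfbr2, the signal carriers Smad2, Smad3 and Smad4, the inhibitors Smad7 and Skil, and the induced matrix protein gene Tgfbi. They were picked by name as known pathway genes, and all 9 had a row among the 24047 rows of the deposited counts. Each had reads in all 6 libraries, and all 9 passed the filter on low counts. The study sequenced bulk RNA of sorted monocytes from mice with nephrotoxic nephritis (NTN), an antibody-driven inflammation of the glomeruli. Kidney libraries (titles Kid.double_pos, replicates 7, 8 and 22) were set against libraries of spleen and bone marrow (titles SPL_BM.double, replicates 2, 24 and 26), 3 in each group. The strain is given as C5/Bl6 with no genotype, the age as 8 to 10 weeks and the number of animals as 10 for the series, and tissue was taken on day 13 of NTN. The sort markers are not named, enrichment and sorting are described for renal monocytes, and no group lacked NTN, so effects of tissue, handling and inflammation cannot be separated by this design and cannot be told apart. Whether replicates are separate animals or pools is not stated, and p-values therefore cover the spread between these samples alone.

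TGF-beta 1 is secreted in a latent complex and is released by integrins and proteases. The free ligand binds the type II receptor TGFBR2, which phosphorylates the type I receptor TGFBR1. That kinase phosphorylates SMAD2 and SMAD3, which enter the nucleus with SMAD4, while SMAD7 acts at the receptor and SnoN, the product of Skil, represses SMAD complexes in the nucleus. In kidney disease the pathway is known for driving scar formation, and in macrophages it is known for damping inflammation and for shaping tissue-resident identity.

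Total counts ran from 3492391 to 7938223 in the kidney libraries, with the lowest in replicate 22, and from 7311991 to 9727489 in the spleen and marrow libraries. A list of 12 monocyte and macrophage markers, all tested with 7 higher and 2 lower, summed to 39618 to 42924 CPM (counts scaled to library size) in kidney and to 47210 to 64645 CPM in spleen and marrow. A list of 10 T and NK cell markers, of which 4 were tested with no call, summed to 8.18, 19.3 and 32.01 CPM in kidney libraries 7, 8 and 22, against 87.3 to 124 CPM in spleen and marrow. The kidney libraries differed among themselves in transcripts of other cells. A list of 10 endothelial markers, of which 3 were tested and 1 rose, summed to 29.5, 926 and 22.02 CPM in kidney libraries 7, 8 and 22, against 7.52 to 11.8 CPM in spleen and marrow, with Cdh5 at 0 in replicate 22 and Tie1 at 0 in replicates 7 and 22. A list of 10 fibroblast and mural markers, of which 2 were tested and 1 rose, summed to 55.6, 1230.2 and 42.9 CPM in kidney against 11.9 to 14.3 CPM in spleen and marrow, and 7 podocyte and mesangial markers, of which 1 was tested without a call, to 4.27, 74.9 and 8.81 CPM against 0.574 to 1.07 CPM. A list of 9 neutrophil markers with a row, all tested and 1 lower, summed to 1227, 4399 and 43585 CPM against 21572 to 29059 CPM. A list of 10 tubule markers, of which 5 were tested and all 5 rose, summed to 631, 280.5 and 1807 CPM against 23.4 to 23.9 CPM. In such bulk samples, fewer cells of a type and less RNA per cell cannot be told apart.

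Of the 9 members, 5 rose in kidney (Tgfbr1, Tgfbr2, Smad3, Skil and Tgfbi) and none fell. The test was edgeR's quasi-likelihood test with Benjamini-Hochberg adjustment over all 10626 genes tested, and a call is an adjusted p under 0.05. Over all tested genes 7.83% were called higher and 5.9% lower. Of all calls 57.0% were higher, but 46.8% with limma-voom and 42.7% or 48.1% with limma-trend fits of FPKM at pseudocounts of 1 or 0.1, so this background split differed between fits. No member was lower at an unadjusted p under 0.05 in edgeR, and DESeq2 and limma-voom each also called 5 higher and 0 lower. Of all tested genes, DESeq2 called 10.95% higher and 9.36% lower, and limma-voom 6.94% and 7.89%. These shares are also the background for the calls of both tools in the gene lists below. No such share is given at an unadjusted p under 0.05, so list counts at that limit have no background here. The median log2 fold change of the members was 1.04, beside 0.05 over all tested genes. The CPM of 7 members did not overlap between the groups, all higher in kidney, where 19.2% of tested genes lay entirely higher and 18.8% entirely lower. Of these 7 members, Tgfb1 and Smad7 did overlap between the groups in FPKM. Leaving out any 1 spleen and marrow library left 3 members called (Tgfbr1, Tgfbr2 and Skil). Without spleen and marrow replicate 2, 24 or 26, 2.57%, 2.53% and 2.31% of all tested genes were called higher. Without kidney replicate 7, 8 or 22 the number of members called was 4, 5 and 6. Of all tested genes, 8.15%, 8.52% and 14.3% were then called higher, beside 7.83% with all 6 libraries.

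**Figure D1:**
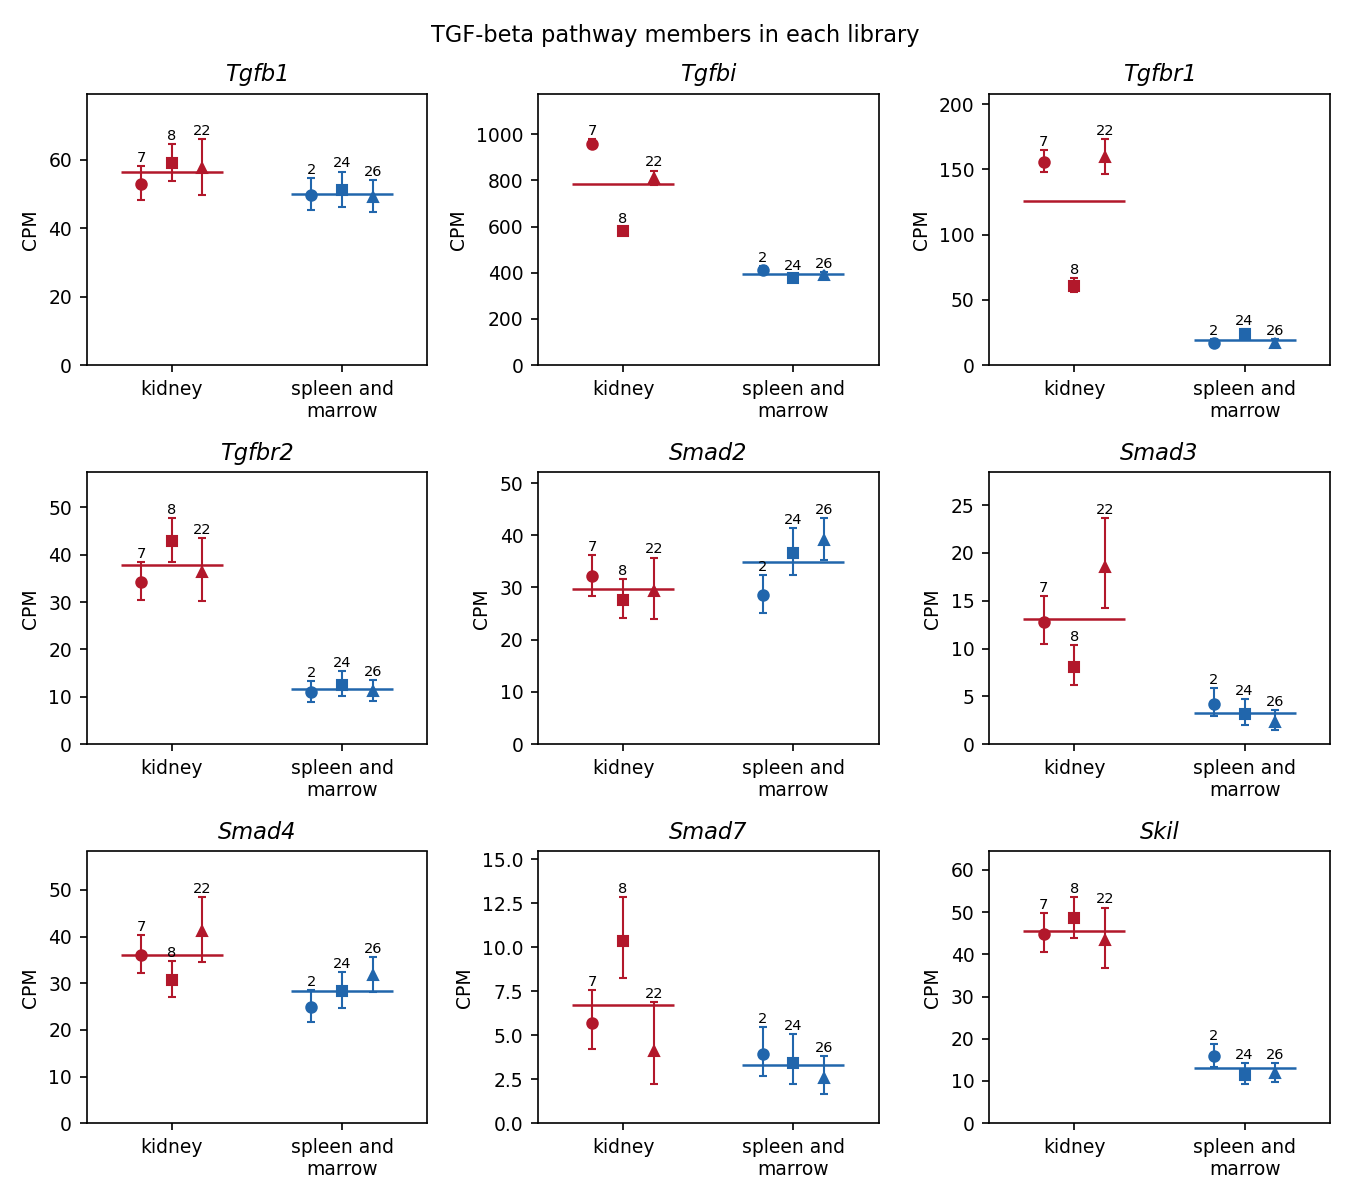
CPM of each member in each library, kidney in red on the left and spleen and marrow in blue on the right, with 95% exact Poisson intervals that cover counting error, the replicate number above each point and group means as lines. Tgfbr1, Tgfbr2, Smad3 and Skil stand apart between the groups, Tgfb1 lies at 53.0 to 59.0 CPM in kidney and 49.3 to 51.2 CPM in spleen and marrow, and the Smad2 and Smad4 points overlap.

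The start regions of 4 members that rose are shown because their transcripts were higher together. Each spans 250 bases before to 50 bases after a gene start in RefSeq on build GRCm38.p6, while the deposited values were made on mm9. Capitals mark GGGCGG or its reverse complement CCGCCC, a GC box that the factor Sp1 can bind, searched for after the sequences were seen. Of the members, 5 had a printable entry (Tgfb1 is the one not shown), and the first of 2 listed starts is given for Tgfbr1, at chr4:47352972-47353271, plus strand. Tgfbr2 lies at chr9:116175314-116175613, minus strand, Smad3 at chr9:63757945-63758244, minus strand, and Tgfbi at chr13:56609336-56609635, plus strand.
Tgfbr1: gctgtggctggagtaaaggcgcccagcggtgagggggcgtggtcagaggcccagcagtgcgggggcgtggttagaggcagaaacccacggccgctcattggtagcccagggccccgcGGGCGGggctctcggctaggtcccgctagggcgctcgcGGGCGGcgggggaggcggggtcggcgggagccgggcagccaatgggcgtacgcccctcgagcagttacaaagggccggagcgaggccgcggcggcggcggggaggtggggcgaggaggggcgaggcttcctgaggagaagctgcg
Tgfbr2: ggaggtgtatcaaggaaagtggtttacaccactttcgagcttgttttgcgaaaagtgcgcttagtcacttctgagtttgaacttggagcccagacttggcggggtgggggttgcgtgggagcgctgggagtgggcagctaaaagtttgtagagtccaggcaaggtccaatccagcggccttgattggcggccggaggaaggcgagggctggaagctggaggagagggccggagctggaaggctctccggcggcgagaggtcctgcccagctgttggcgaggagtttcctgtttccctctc
Smad3: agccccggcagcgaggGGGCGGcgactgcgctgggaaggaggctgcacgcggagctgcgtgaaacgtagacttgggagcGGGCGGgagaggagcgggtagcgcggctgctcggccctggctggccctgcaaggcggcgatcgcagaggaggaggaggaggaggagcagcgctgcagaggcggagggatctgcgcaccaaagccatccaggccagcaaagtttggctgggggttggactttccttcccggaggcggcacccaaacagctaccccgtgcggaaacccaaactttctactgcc
Tgfbi: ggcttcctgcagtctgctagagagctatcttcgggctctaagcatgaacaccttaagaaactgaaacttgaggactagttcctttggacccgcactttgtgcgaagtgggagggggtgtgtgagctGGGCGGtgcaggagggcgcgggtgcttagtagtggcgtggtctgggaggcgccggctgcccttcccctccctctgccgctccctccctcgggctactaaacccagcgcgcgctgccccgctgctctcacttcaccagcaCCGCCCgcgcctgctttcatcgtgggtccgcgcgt

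Searched on both strands, none of these 4 windows, nor that of Tgfb1, held the palindromic SMAD element GTCTAGAC, the CAGA box CAGACA, the AP-1 element TGANTCA or the PU.1-type element GAGGAAGT. These motifs occurred in 0.213%, 21.0%, 7.81% and 3.20% of the 32851 windows of the same length, so a window without them is common. The second listed start of Tgfbr1 held 1 CAGACA, at position -203 from that start. GC boxes numbered 2 in each of the Tgfbr1, Smad3 and Tgfbi windows, 6 in that of Tgfb1 and 0 in that of Tgfbr2, and 35.7% of all windows held at least 1. The GC content was 74.7% for Tgfbr1, 59.0% for Tgfbr2, 67.7% for Smad3, 63.3% for Tgfbi and 77.0% for Tgfb1, against a median of 52.7% over all windows. The 4 windows shown had a GC content above that median, as did that of Tgfb1, which did not pass the test. The second listed start of Tgfbr1 lay below it, at 52.0%, and held no GC box. Skil, the other gene that rose, has no entry. Which start was used in these cells was not tested.

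The ligand transcript Tgfb1 did not pass the test. It stood at 53.0, 59.0 and 57.6 CPM in kidney libraries 7, 8 and 22, against 49.8, 51.2 and 49.3 CPM in spleen and marrow replicates 2, 24 and 26. The kidney values all lay above the others, but the counting intervals of single libraries overlapped across the groups. In FPKM the groups overlapped, with kidney replicate 22 at 8.48, below the spleen and marrow values of 10.4 to 10.6. Tgfb1 averaged 56.5 ± 3.15 CPM in kidney cells and 50.1 ± 0.956 CPM in spleen and marrow cells (SD, n = 3 per group). The log2 difference was 0.17 ± 0.16 (SE), at edgeR adjusted p = 0.52. The 95% interval of the fold, 0.879 to 1.45, leaves room for a small difference either way. Platelets carry much TGF-beta 1, and the 8 platelet markers summed to 299, 349 and 415 CPM in kidney against 7.01 to 12.6 CPM in spleen and marrow, with 2 of 3 tested members higher. Most of the kidney sum was the chemokine Pf4, at 285, 294 and 402 CPM in the same libraries. The part of platelets in the Tgfb1 values was not tested.

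The other ligands of the family were scarce. Of 9 listed, 3 passed the filter and none was called by edgeR, with 1 higher and 0 lower at an unadjusted p under 0.05, 1 higher by DESeq2 and 0 by limma-voom. Tgfb2 and Tgfb3, the other TGF-beta isoforms, had 12 and 15 counts over the kidney libraries and 1 and 3 over those of spleen and marrow. Gdf15, a distant family member induced by stress, averaged 11.97 ± 10.0 CPM in kidney cells and 1.74 ± 1.87 CPM in spleen and marrow cells (SD, n = 3 per group) without a call (edgeR adjusted p = 0.0851). Gdf3 averaged 3.09 ± 1.33 CPM in kidney cells and 1.99 ± 0.330 CPM in spleen and marrow cells, also without a call. Inhbb, Bmp2, Bmp4 and Bmp6 had no count in spleen and marrow and 64, 20, 6 and 15 over the kidney libraries, of which 63, 15, 6 and 15 came from replicate 8.

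Genes that store and free latent TGF-beta were measured from a list of 15, of which 8 were tested. Of these 4 rose and none fell in edgeR, with 5 higher and 0 lower at an unadjusted p under 0.05, and 4 higher and 0 lower by both DESeq2 and limma-voom. Itgb5, the beta subunit of an integrin that can activate the latent form, stood at 94.6, 76.8 and 83.7 CPM in kidney against 10.3, 7.52 and 10.1 CPM in spleen and marrow, a log2 difference of 3.19 ± 0.21 (SE; edgeR adjusted p = 0.000387). Its partner Itgav averaged 38.3 ± 13.3 CPM in kidney cells and 9.11 ± 1.95 CPM in spleen and marrow cells (SD, n = 3 per group), and Itgb1, another beta subunit that pairs with Itgav, had a log2 fold change of 1.07 ± 0.18 (SE). The membrane protease gene Mmp14 had the largest difference of the 4, at 45.4, 58.6 and 81.6 CPM in kidney against 1.148, 0.41 and 1.501 CPM in spleen and marrow (edgeR adjusted p = 0.000564). Its product is also a general matrix protease.

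Nrros, which tethers latent TGF-beta on myeloid cells, stood at 103, 103 and 89.0 CPM in kidney against 107, 129 and 125 CPM in spleen and marrow, a log2 fold change of -0.29 ± 0.15 without a call (edgeR adjusted p = 0.249). The other tether, Lrrc32, was not tested. It had 10, 113 and 0 counts in kidney replicates 7, 8 and 22 and 0 in spleen and marrow, and so was highest in the library with the highest endothelial and fibroblast sums; the part of such cells in it was not tested. The protease gene Furin, which cuts the precursor, and the activator gene Thbs1 were not called, at log2 differences of 0.33 and 0.93. Itgb5 and Mmp14 were called on leaving out any 1 library, while the calls of Itgav and Itgb1 depended on single libraries. Itgav was lost without spleen and marrow replicate 2 or 26 (edgeR adjusted p = 0.0535 and 0.0557) and Itgb1 without replicate 24 or 26 (0.068 and 0.0727), which left 2 calls without replicate 26. Ltbp1, Ltbp2 and Ltbp4, which anchor the latent form in matrix, and the integrin gene Itgb8 had no count in spleen and marrow and 12, 6, 33 and 3 over the kidney libraries. Of these counts, replicate 8 held 9 for Ltbp1, 6 for Ltbp2 and 33 for Ltbp4.

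Both receptor genes rose. Tgfbr1, the type I receptor kinase, stood at 156, 61.0 and 159 CPM in kidney libraries 7, 8 and 22, against 17.2, 23.7 and 17.1 CPM in spleen and marrow replicates 2, 24 and 26. All kidney libraries lay above all others, and replicate 8 stood well below its group. Its interval from counting, 55.7 to 66.7 CPM, did not meet those of replicates 7 (148 to 165) and 22 (146 to 173). The means were 125 ± 55.8 CPM in kidney cells and 19.3 ± 3.74 CPM in spleen and marrow cells (SD, n = 3 per group). Kidney exceeded spleen and marrow by a log2 difference of 2.70 ± 0.38 (SE), at edgeR adjusted p = 0.00433, or 6.48-fold with a 95% interval of 3.53 to 11.9. In size, 94.3% of tested genes differed less. Leaving out any 1 library gave log2 fold changes from 2.46 to 3.02 and adjusted p from 0.00187 to 0.0393.

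Tgfbr2, the type II receptor that binds the ligand first, stood at 34.2, 43.0 and 36.4 CPM in kidney against 10.9, 12.6 and 11.1 CPM in spleen and marrow. The groups were far apart and each was tight. The means were 37.9 ± 4.54 CPM in kidney cells and 11.5 ± 0.907 CPM in spleen and marrow cells (SD, n = 3 per group). On the log2 scale the difference was 1.71 ± 0.22 (SE), at edgeR adjusted p = 0.00292, or 3.28-fold. Tgfbr2 was highest in replicate 8, the library with the endothelial sum of 926 CPM, and endothelium is known to express it. The log2 difference without replicate 8 was 1.60, and leaving out any 1 library gave edgeR adjusted p from 0.00119 to 0.032. The part of endothelial cells in the Tgfbr2 values was not tested.

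The balance of the receptor transcripts was not uniform in kidney. Kidney replicates 7, 8 and 22 held 4.55, 1.42 and 4.38 counts of Tgfbr1 per count of Tgfbr2, against 1.58, 1.88 and 1.54 in spleen and marrow. Replicate 8 thus lay close to the spleen and marrow libraries, slightly below them, and the other kidney libraries lay far above them. The spleen and marrow ratios rest on 92 to 104 counts of Tgfbr2 per library, and no counting interval is given for the ratios. The log2 ratio differed by 0.88 (exact two-sided permutation test, p = 0.4, where 0.1 is the smallest p that 3 against 3 allows), and by 1.43 without kidney replicate 8.

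**Figure D2:**
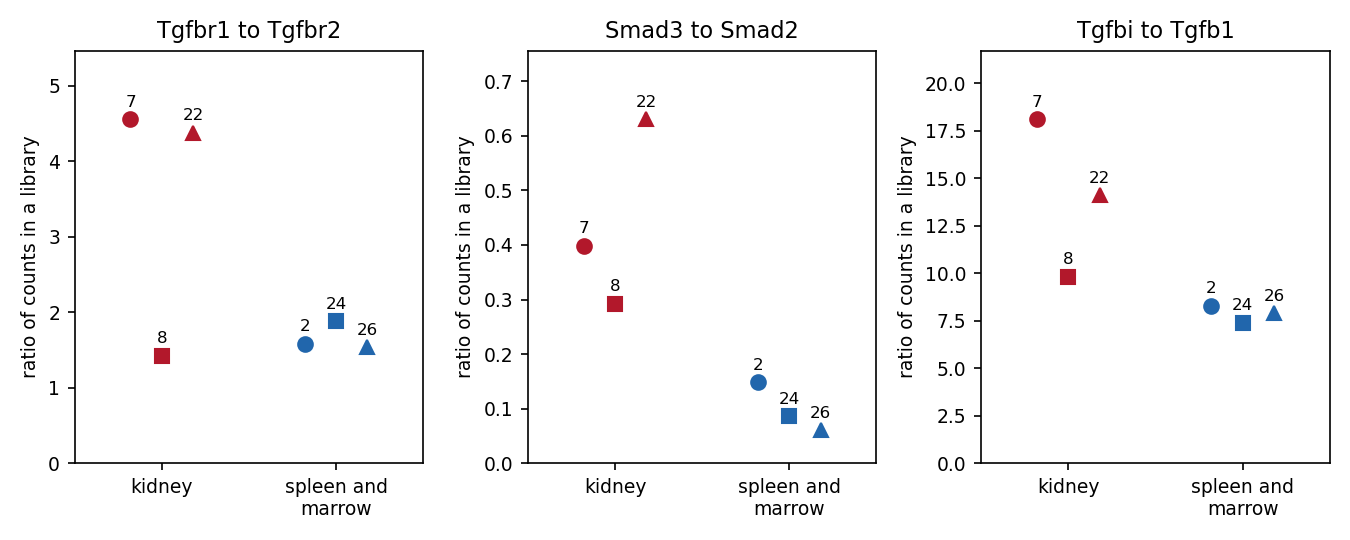
Ratio of the counts of paired members within each library (no scaling is involved; the ratio of different genes is not corrected for length), kidney in red on the left and spleen and marrow in blue on the right, with replicate numbers. Smad3 to Smad2 and Tgfbi to Tgfb1 do not overlap between groups, while Tgfbr1 to Tgfbr2 overlaps through kidney replicate 8 at 1.42.

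Of 10 other receptors and co-receptors of the family, 6 were tested and edgeR called none, with 2 higher and 0 lower at an unadjusted p under 0.05, 1 higher by DESeq2 and 0 by limma-voom. Acvrl1, a type I receptor best known in endothelium, stood at 13.5, 26.4 and 13.5 CPM in kidney against 7.92, 9.71 and 9.003 CPM in spleen and marrow (log2 fold change 1.01 ± 0.36, edgeR adjusted p = 0.106). Bambi, which encodes a decoy receptor without a kinase, averaged 12.7 ± 8.23 CPM in kidney cells and 22.9 ± 1.25 CPM in spleen and marrow cells (SD, n = 3 per group) without a call. Without kidney replicate 8 Bambi was called lower (log2 fold change -1.53, edgeR adjusted p = 0.0393), and without replicate 22, 4 receptor genes were called higher. The fit without replicate 22 called 14.3% of all tested genes higher.

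Of the receptor-activated SMADs, Smad3 rose and Smad2 did not pass the test. Smad3, which binds DNA directly, stood at 12.8, 8.09 and 18.5 CPM in kidney libraries 7, 8 and 22, from 108, 64 and 63 counts, against 4.25, 3.15 and 2.36 CPM in spleen and marrow replicates 2, 24 and 26, from 37, 23 and 22 counts. The groups did not overlap, and among the kidney libraries replicate 8 was lowest, as for Tgfbr1. Replicate 22, the library with the highest tubule and neutrophil sums, was highest, and the part of such cells in Smad3 was not tested. The means were 13.1 ± 5.21 CPM in kidney cells and 3.25 ± 0.9499 CPM in spleen and marrow cells (SD, n = 3 per group). The log2 difference was 2.00 ± 0.45 (SE), at edgeR adjusted p = 0.0247, or 3.99-fold with a 95% interval of 1.94 to 8.201. The call was lost without kidney replicate 7 (edgeR adjusted p = 0.0541) and without spleen and marrow replicate 2, 24 or 26 (0.0839, 0.118 and 0.138), with log2 fold changes from 1.65 to 2.25 over the 6 libraries left out in turn.

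Smad2, whose main form does not bind DNA by itself, stood at 32.1, 27.7 and 29.4 CPM in kidney against 28.6, 36.7 and 39.1 CPM in spleen and marrow, so the groups overlapped. The log2 difference was -0.23 ± 0.21 (SE, edgeR adjusted p = 0.528), with a 95% interval of the fold from 0.613 to 1.19. Counts of Smad3 per count of Smad2 were 0.399, 0.292 and 0.630 in kidney against 0.149, 0.0858 and 0.0603 in spleen and marrow. Every kidney library was above every other, and the log2 ratio differed by 2.19 (exact two-sided permutation test, p = 0.1, the smallest p that 3 against 3 allows).

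Smad4, the common partner of the receptor-activated SMADs, stood at 36.0, 30.7 and 41.1 CPM in kidney against 24.9, 28.3 and 31.7 CPM in spleen and marrow. The groups overlapped through kidney replicate 8, and the log2 fold change of 0.34 ± 0.21 (SE) was not called (edgeR adjusted p = 0.341, 95% interval of the fold 0.904 to 1.77). Of 9 other SMADs and adaptors, 8 were tested and edgeR called none, with 3 higher and 0 lower at an unadjusted p under 0.05, 2 higher by DESeq2 and 0 by limma-voom. Smad1, a carrier of the bone morphogenetic protein branch, stood at 15.8, 19.7 and 59.3 CPM in kidney against 8.96, 9.58 and 11.04 CPM in spleen and marrow (edgeR adjusted p = 0.0682, and called without kidney replicate 7 or 22). Smad1 was highest in replicate 22, the library with the highest tubule and neutrophil sums, and the part of such cells in it was not tested. Zfyve16, an endosomal adaptor, averaged 16.7 ± 2.36 CPM in kidney cells and 10.47 ± 1.63 CPM in spleen and marrow cells (SD, n = 3 per group) without a call. Without kidney replicate 22, 3 genes of this list and 14.3% of all tested genes were called higher. Smad9 had no count in any library.

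Of the inhibitors, Skil rose and Smad7 did not pass the test. Skil, whose product SnoN is destroyed on TGF-beta signalling while its gene is induced by it, stood at 44.9, 48.5 and 43.5 CPM in kidney against 15.8, 11.5 and 11.9 CPM in spleen and marrow. It was the most even of the called members across the kidney libraries, with a coefficient of variation of 5.72%, against 44.5% for Tgfbr1. The means were 45.6 ± 2.61 CPM in kidney cells and 13.1 ± 2.41 CPM in spleen and marrow cells (SD, n = 3 per group). On the log2 scale the difference was 1.80 ± 0.22 (SE), at edgeR adjusted p = 0.00247, or 3.49-fold with a 95% interval of 2.44 to 4.97. Leaving out any 1 library gave adjusted p from 0.00113 to 0.0286.

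Smad7, the inhibitory SMAD that a TGF-beta signal induces, stood at 5.69, 10.4 and 4.11 CPM in kidney libraries 7, 8 and 22, from 48, 82 and 14 counts, against 3.90, 3.42 and 2.57 CPM in spleen and marrow, from 34, 25 and 24 counts. Replicate 8 was high, and replicate 22 could not be parted from spleen and marrow at this depth, since its counting interval ran from 2.25 to 6.90 CPM. The log2 difference was 1.04 ± 0.49 (SE) with edgeR adjusted p = 0.216 (95% interval of the fold 0.932 to 4.53). It was 0.57 without replicate 8 (adjusted p = 0.501), the library highest in endothelial transcripts, and 1.26 without replicate 22 (adjusted p = 0.0472). The part of other cells in these values was not tested.

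Of 13 other inhibitors and regulators of receptor and SMAD turnover, 12 were tested, and 3 rose and none fell in edgeR, with 5 higher and 0 lower at an unadjusted p under 0.05, 3 higher and 0 lower by DESeq2 and 2 and 0 by limma-voom. Pmepa1, a SMAD target gene whose product holds SMAD2 and SMAD3 away from the receptor, had 159, 323 and 68 counts in kidney replicates 7, 8 and 22 and 1 count over all spleen and marrow libraries. In CPM the kidney values were 18.8, 40.8 and 19.97, against 0 to 0.137 in spleen and marrow. The ratio of pooled counts was 706, with a 95% exact binomial interval of 126 to 27920.4 that covers counting error alone, and edgeR's adjusted p was 0.000828. Pmepa1 was highest in replicate 8, the library highest in endothelial and fibroblast transcripts, whose part in it was not tested.

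Dab2, an endocytic adaptor reported to link TGF-beta receptors to SMADs, had 677, 401 and 121 counts in kidney and 2 in spleen and marrow, a ratio of 769 (95% interval 212 to 6358). It is also a gene of kidney tubule, and its CPM of 80.2, 50.7 and 35.5 in replicates 7, 8 and 22 stood beside tubule sums of 631, 280.5 and 1807 CPM; the part of tubule cells in it was not tested. The ubiquitin ligase gene Wwp1 stood at 32.7, 21.2 and 89.9 CPM in kidney against 12.2, 12.9 and 10.2 CPM in spleen and marrow (edgeR adjusted p = 0.0383, lost without kidney replicate 7 at 0.0507 and without spleen and marrow replicate 2, 24 or 26 at 0.149, 0.128 and 0.158). Wwp1 was highest in replicate 22, the library with the highest tubule and neutrophil sums. Its log2 fold change was 2.01, and 1.18 without that library. The part of such cells in Wwp1 was not tested. Without kidney replicate 22, 6 genes of this list and 14.3% of all tested genes were called higher.

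Among 15 nuclear partners of the SMADs, 13 were tested, with 2 higher and none lower in edgeR, 4 higher and 1 lower at an unadjusted p under 0.05, 2 higher and 1 lower by DESeq2 and 2 and 0 by limma-voom. Ski, the close relative of Skil and likewise a repressor of SMAD complexes, stood at 33.4, 29.2 and 49.0 CPM in kidney against 8.498, 10.53 and 9.86 CPM in spleen and marrow. Kidney exceeded spleen and marrow by a log2 difference of 1.94 ± 0.28 (SE), at edgeR adjusted p = 0.0046. Runx3, a transcription factor that can act with SMADs, averaged 34.2 ± 6.34 CPM in kidney cells and 10.3 ± 1.64 CPM in spleen and marrow cells (SD, n = 3 per group; edgeR adjusted p = 0.00577). Both were called on leaving out any 1 library. The deacetylase gene Hdac1 had a log2 fold change of -0.63 ± 0.19 without a call (edgeR adjusted p = 0.0619), and it was called lower by DESeq2 and without kidney replicate 22. Of 10 genes of SMAD-independent signalling, all tested, edgeR called none, with 1 higher and 0 lower at an unadjusted p under 0.05, 1 higher by DESeq2 and 0 by limma-voom. Its 2 most abundant genes, the small GTPase gene Rhoa and the kinase gene Rock1, had log2 fold changes of -0.25 and 0.35. Foxh1, a nuclear SMAD partner, had no count in any library.

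Over these role lists together, 81 genes other than the members had a row and 60 were tested. Of these 9 rose and none fell in edgeR, with a median log2 fold change of 0.53 beside 0.05 over all tested genes, and 21 were higher and 1 lower at an unadjusted p under 0.05. DESeq2 called 14 higher and 1 lower, and limma-voom 8 and 0. Among all tested genes, DESeq2 called 10.95% higher and 9.36% lower, and limma-voom 6.94% and 7.89%. Without kidney replicate 22 edgeR called 22 higher and 1 lower (Hdac1), and without kidney replicate 8 it called 9 higher and 1 lower (Bambi). Over all tested genes the edgeR fits without kidney replicate 22 and without replicate 8 called 14.3% and 8.52% higher, and 11.1% and 5.38% lower.

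**Figure D3:**
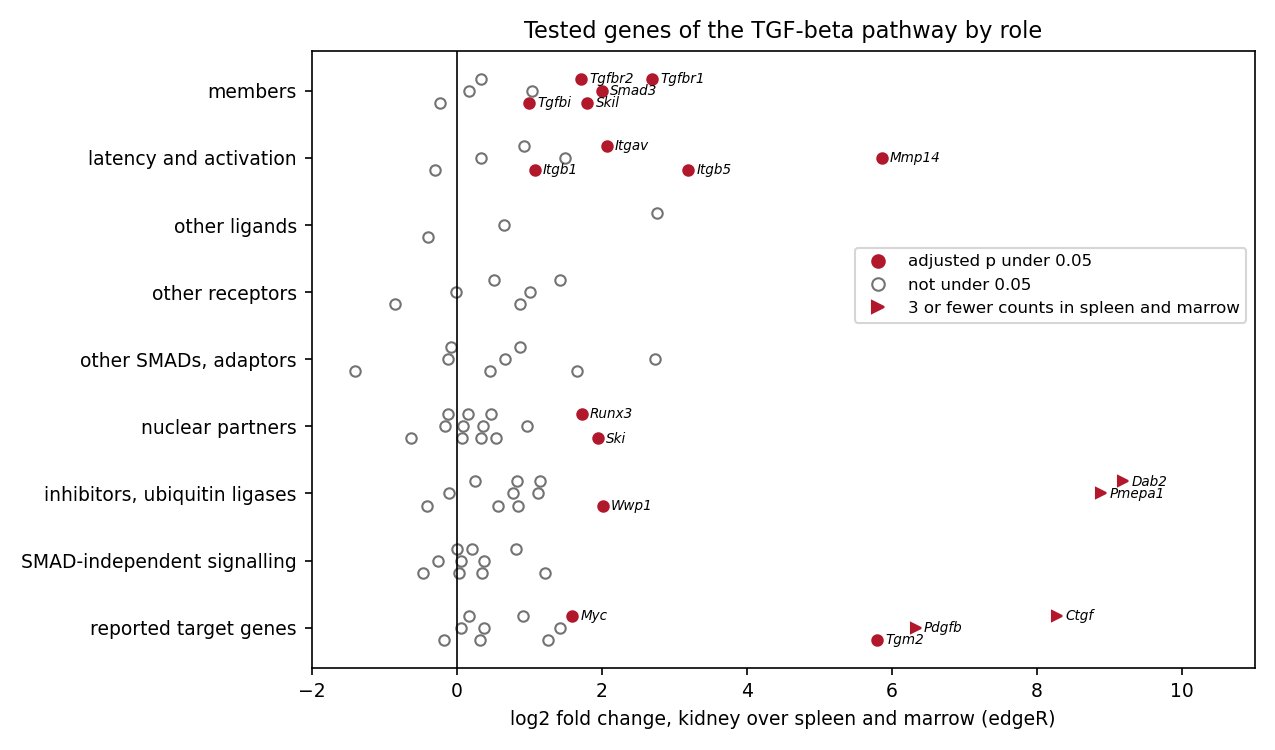
Log2 fold change, kidney over spleen and marrow, of each tested gene of the pathway by role, with genes under an adjusted p of 0.05 filled and named; vertical scatter within a row carries no value, and 1 tested target gene is not shown. Triangles are genes with 3 or fewer counts in spleen and marrow, whose fitted value depends on edgeR's prior count; their count ratios are given in the text. The 5 called members lie between 0.99 and 2.70.

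Tgfbi, a secreted matrix protein named for its induction by TGF-beta, was the most abundant member and differed modestly. It stood at 959, 579.5 and 811 CPM in kidney libraries 7, 8 and 22, against 413, 379 and 389 CPM in spleen and marrow replicates 2, 24 and 26. All kidney libraries were higher, with replicate 8 lowest among them, as for Tgfbr1 and Smad3. The means were 783 ± 191 CPM in kidney cells and 394 ± 17.8 CPM in spleen and marrow cells (SD, n = 3 per group). On the log2 scale the difference was 0.99 ± 0.19 (SE), at edgeR adjusted p = 0.0131, or 1.99-fold with a 95% interval of 1.47 to 2.69. The call was lost without spleen and marrow replicate 2, 24 or 26 (edgeR adjusted p = 0.0649, 0.0794 and 0.0818) and with limma-trend on log2(FPKM + 1) (0.0608). There were 18.1, 9.82 and 14.1 counts of Tgfbi per count of Tgfb1 in kidney, against 8.29, 7.40 and 7.88 in spleen and marrow, a log2 difference of 0.79 (exact two-sided permutation test, p = 0.1, the smallest p that 3 against 3 allows).

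Other genes that TGF-beta is reported to induce or repress came from a list of 17, of which 13 were tested. In edgeR 5 rose and none fell, with 7 higher and 0 lower at an unadjusted p under 0.05, 6 higher and 0 lower by DESeq2 and 4 and 0 by limma-voom. Tgm2, a transglutaminase that crosslinks matrix, stood at 83.5, 81.4 and 152 CPM in kidney against 2.99, 1.23 and 1.39 CPM in spleen and marrow (log2 fold change 5.79 ± 0.44, edgeR adjusted p = 0.000564). It shares 370 of its 4608 exon bases with the opposite-strand gene Rprd1b in GENCODE M21, where reads cannot be assigned without strand. Myc, a growth regulator that TGF-beta represses in epithelium, averaged 22.1 ± 1.63 CPM in kidney cells and 7.30 ± 1.37 CPM in spleen and marrow cells (SD, n = 3 per group), and so rose where the reported effect is a fall.

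Of the called targets, Ctgf and Pdgfb were almost without counts in spleen and marrow. Ctgf, a matrix-associated growth regulator, had 53, 327 and 12 counts in kidney and 1 in spleen and marrow, a ratio of 503 (95% interval 89.7 to 19914). Pdgfb, a growth factor of mesenchymal cells, had 19, 43 and 20 counts in kidney and 1 in spleen and marrow, a ratio of 105 (95% interval 18.4 to 4205). Ctgf was highest in kidney replicate 8, beside its endothelial sum of 926 CPM and its fibroblast and mural sum of 1230.2 CPM; the part of such cells was not tested. Without spleen and marrow replicate 2, 24 or 26 the called genes of this list numbered 3, 1 and 1, with Tgm2 called each time. Over all tested genes, 2.57%, 2.53% and 2.31% were then called higher. Id1 was called lower without kidney replicate 8. Cdkn2b, a cell cycle inhibitor gene, had 12 counts in kidney, all in replicate 8, and 0 in spleen and marrow.

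A further list held 16 genes of microglia or other tissue macrophages, only some of them reported to depend on TGF-beta in mouse microglia. Several are expressed by tissue macrophages in general, and whether any depends on TGF-beta in these cells was not tested. Of these 14 were tested, 12 rose and none fell in edgeR, with 13 higher and 0 lower at an unadjusted p under 0.05, 13 higher and 0 lower by DESeq2 and 12 and 0 by limma-voom. Tmem119, a membrane protein gene used to mark microglia, stood at 39.0, 32.2 and 59.9 CPM in kidney against 1.49, 3.15 and 2.89 CPM in spleen and marrow (log2 fold change 4.11 ± 0.40, edgeR adjusted p = 0.00109). The receptor gene Gpr34 had a log2 fold change of 3.43 ± 0.45 (SE). The complement gene C1qa averaged 790.0 CPM in kidney cells and 2.70 CPM in spleen and marrow cells, and the chemokine receptor gene Cx3cr1 averaged 194 CPM in kidney cells and 35.3 CPM in spleen and marrow cells. The receptor kinase gene Axl and the protease inhibitor gene Spint1 had log2 fold changes of 5.12 ± 0.42 and 1.90 ± 0.34. Olfml3, Fcrls, Gas6 and the receptor kinase gene Mertk had 71, 151, 167 and 292 counts over the kidney libraries and 1, 1, 2 and 3 over those of spleen and marrow. The purinergic receptor genes P2ry12 and P2ry13 were tested and not called, with log2 fold changes of 1.18 and 1.11. Slco2b1 had 48 counts in kidney and 0 in spleen and marrow. Sall1, a transcription factor of microglia that kidney tissue also expresses, had 0, 0 and 42 counts in kidney replicates 7, 8 and 22 and 0 in spleen and marrow. Replicate 22 also had the highest tubule sum, and the part of such cells in Sall1 was not tested. Over leaving out single libraries, between 9 and 15 genes of the list were called higher, beside 2.31% to 14.3% of all tested genes.

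**Figure D4:**
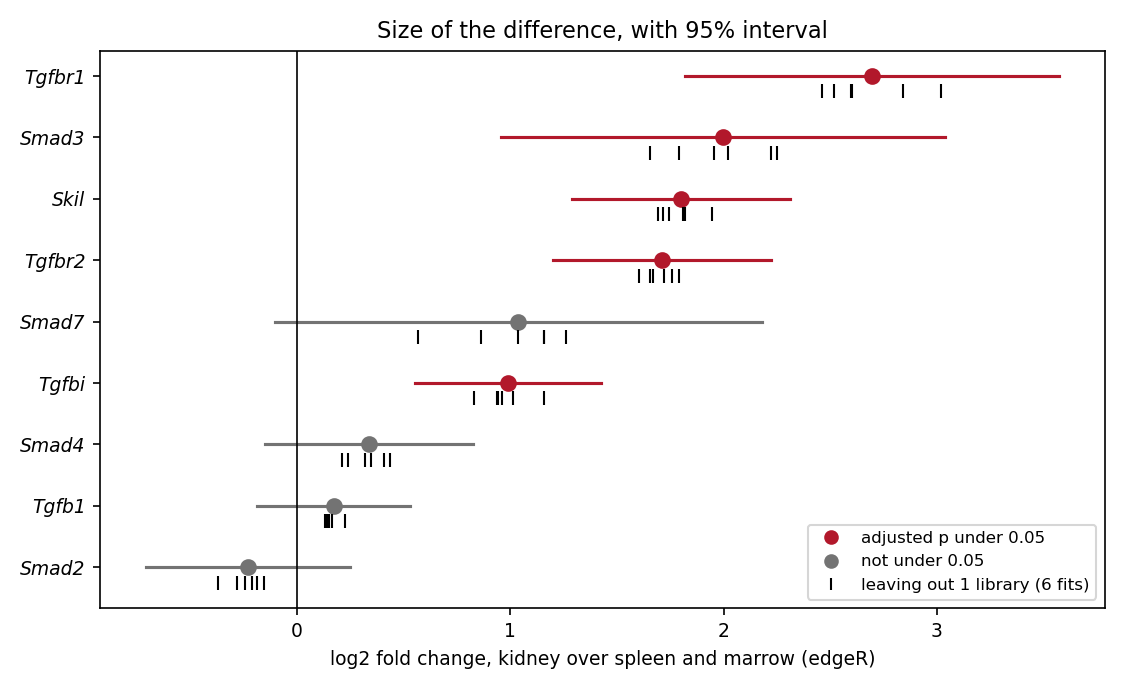
Log2 fold change of each member, kidney over spleen and marrow, with its 95% interval (line), coloured red where the adjusted p was under 0.05, and the 6 values from leaving out 1 library each (ticks). Tgfbr1 has the largest estimate at 2.70 and Smad2 the lowest at -0.23, and no tick crosses 0 from its estimate.

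To set members against each other, levels per transcript length were read from the deposited FPKM (fragments scaled for transcript length and depth). In kidney the order was Tgfbi at 112 ± 31.8 FPKM, Tgfb1 at 11.3 ± 2.60, Tgfbr1 at 7.51 ± 3.20, Smad4 at 3.93 ± 0.231, Tgfbr2 at 2.85 ± 0.688, Skil at 2.25 ± 0.573, Smad2 at 1.42 ± 0.286, Smad3 at 0.851 ± 0.172 and Smad7 at 0.534 ± 0.317 FPKM (mean ± SD, n = 3). Neighbours whose libraries overlapped in that order were Tgfb1 and Tgfbr1, Tgfbr2 and Skil, Skil and Smad2, and Smad3 and Smad7. In spleen and marrow, Tgfbi at 62.7 ± 2.46 FPKM and Tgfb1 at 10.51 ± 0.130 FPKM again led, followed by Smad4 at 3.40 ± 0.411 and Smad2 at 1.71 ± 0.272 FPKM. Next came Tgfbr1 at 1.31 ± 0.286 FPKM, above Tgfbr2 (0.916 ± 0.0822), Skil (0.677 ± 0.115), Smad7 (0.277 ± 0.0504) and Smad3 (0.227 ± 0.0464 FPKM). The overlapping neighbours there were Smad2 with Tgfbr1 and Smad7 with Smad3. By mean, Smad2 thus stood below the receptors in kidney and above them in spleen and marrow, where it overlapped Tgfbr1.

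**Figure D5:**
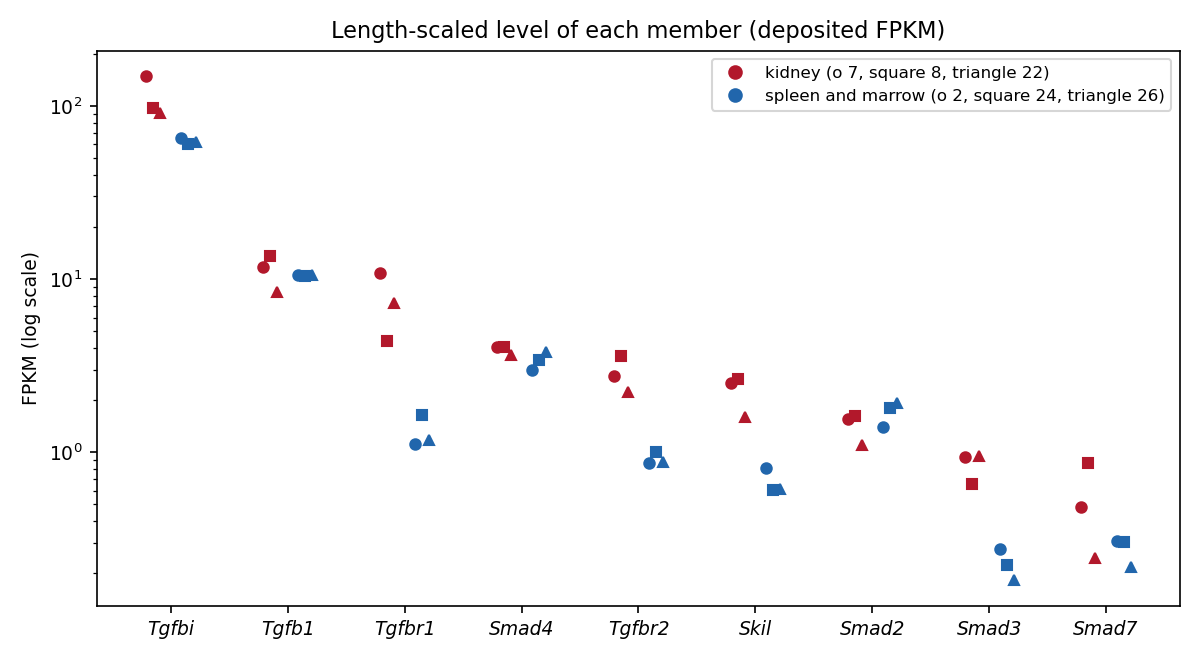
Deposited FPKM of each member on a log scale, ordered by the kidney mean, kidney in red on the left of each pair and spleen and marrow in blue on the right, 1 point per library. Tgfbi leads in both groups, at 112 FPKM in kidney and 62.7 FPKM in spleen and marrow, while Tgfbr1, Tgfbr2, Skil and Smad3 lie higher in kidney.

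Members also differed in how the kidney libraries ranked. Replicate 8 held the lowest kidney CPM of 5 members (Tgfbi, Tgfbr1, Smad2, Smad3 and Smad4) and the highest of the other 4 (Tgfb1, Tgfbr2, Smad7 and Skil). The span from the lowest to the highest kidney library was 2.61-fold for Tgfbr1, 2.52-fold for Smad7 and 2.29-fold for Smad3, and 1.11-fold for Tgfb1, 1.12-fold for Skil and 1.25-fold for Tgfbr2.

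Genes outside the member list with the most similar pattern over the 6 libraries were found by the Euclidean distance of log2 CPM centred on each gene's mean, among 9541 protein-coding genes with a RefSeq symbol. Nearest to Tgfbr1 were Adam8, which encodes a cell surface protease, at a distance of 0.328, then Krt7 and Mfhas1 at 0.484 and 0.496. Adam8 stood at 50.7, 22.1 and 61.7 CPM in kidney libraries 7, 8 and 22 against 7.12, 8.21 and 7.07 CPM in spleen and marrow. Replicate 8 was its lowest kidney library, which its choice by a pattern like that of Tgfbr1 favours. Nearest to Tgfbi were Picalm, a gene of endocytosis, at 0.207, Wdr41 at 0.226 and N4bp1 at 0.23. Nearest to Tgfb1 were Med10, a subunit of the Mediator complex, at 0.0686, Dhx37 at 0.0907 and Tcea1, an elongation factor gene, at 0.103. None of these distances carries a test.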

How the data were processed

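RNA of sorted monocytes was sequenced as 6 libraries, 3 per group. Per the labels' protocols, cDNA was prepared with Clontech Smart Seq v4 reagents starting at 2 ng of RNA and made into ThruPLEX libraries, a chemistry that does not mark strand. In GENCODE M21 no exon of a member overlaps another gene. Of the other named genes checked, Itgav, Dab2, Wwp1 and Tgm2 each share exon bases with an opposite-strand gene, so their reads are less certain. No overlap was found for Itgb1, Itgb5, Mmp14, Pmepa1, Runx3 and Ski, and the remaining named genes were not checked. The authors deposited whole-number raw counts per gene symbol and FPKM values, scaled by the authors for length and depth. The submitters' processing notes name build mm9, Cufflinks 2.2.1, STAR 2.5 and bcl2fastq 2.18; the counting program is not given in the sources used here.

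The test on counts was that of edgeR 4.0.16 under R 4.3.3 (filterByExpr, TMM scaling, glmQLFit and glmQLFTest, two-sided, Benjamini-Hochberg adjustment). CPM are counts over TMM-scaled library size; a standard error is the log2 fold change over the square root of F. A floor of 3 counts is 0.322 to 0.881 CPM in a library. Poisson intervals of single libraries and binomial intervals of count ratios cover counting error only, since reads carry no molecular identifiers, while intervals of fitted folds come from edgeR's standard error and cover the spread between libraries. FPKM were used for levels between genes and, with limma 3.58.1, as an alternative, because the row Mir6236 took 6.96% to 9.82% of the kidney FPKM sums and 17.1% to 17.8% of the others. Other alternatives were DESeq2 1.42.0, limma-voom, other scalings and filters, leaving out each library, and summing spleen and marrow replicates 24 and 26, which are closer to each other (chi-square per degree of freedom 2.96) than other pairs (23.7 to 65.3).

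Members and lists were chosen with earlier results of these data known. Named genes are all members, the called genes of each list or, with no call, its 2 most abundant tested genes, genes at 0 in a whole group, and the 3 nearest genes of 3 members; Nrros, Furin, Thbs1, Tgfb2, Tgfb3, Hdac1, Id1, P2ry12 and P2ry13 were added after their values were seen, as was the GC box. A further 3 called genes count within their lists but are not described here. Figures were drawn with matplotlib 3.10.9.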

Additional observations from a re-analysis of the deposited data

How the results depend on the processing

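No member changed direction under any of 18 alternatives each. The calls of Tgfbr1, Tgfbr2 and Skil held under all of them, Tgfbi lost its call under 7 and Smad3 under 6, and Smad7 gained one under 2. The members called higher numbered 3 at an adjusted p under 0.01 and 3 with spleen and marrow replicates 24 and 26 summed; leaving out single libraries gave 3 to 6 higher and 0 lower. Over all genes, 832 were higher and 627 lower. With sample weights in limma-voom they were 1352 and 1048, at an adjusted p under 0.01 they were 322 and 189, with 24 and 26 summed 299 and 201, and DESeq2 called 995 lower; limma-trend called 468 higher on log2(FPKM + 1) and 543 on log2(FPKM + 0.1). Without single libraries they were 260 to 1569 higher and 179 to 1215 lower. Of the other pathway genes, DESeq2 called 14 higher and 1 lower, limma-voom with sample weights 16 and 1, and leaving out single libraries gave 6 to 22 higher and 0 to 1 lower. The cause of these shifts was not tested, apart from the stricter threshold, which by construction leaves fewer calls; the most calls came without kidney replicate 22 and the fewest without spleen and marrow replicate 26. The Tgfbr1 to Tgfbr2 log2 ratio differed by 0.59 to 1.43 on leaving out single libraries, Smad3 to Smad2 by 1.89 to 2.54 and Tgfbi to Tgfb1 by 0.58 to 1.02. The median log2 fold change of all genes was 0.05 with TMM, 0.11 with library size alone and -0.14 on log2(FPKM + 0.1); no member's direction depended on it. No paired analysis was possible because the groups share no replicate number. Smad7 and Smad3 rest on 14 to 108 counts per library.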
